A study of Homo sapiens with 9 samples.

Results

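The 10 genes described here encode enzymes of de novo purine synthesis and of its branches to AMP and GMP: PPAT, GART, PFAS, PAICS, ADSL, ATIC, IMPDH1, IMPDH2, GMPS and ADSS2. They were taken by name as members of the pathway, with earlier results of these data known. All 10 were in the count table of 23727 genes, and all 10 were among the 15273 genes with enough counts to be tested. RNA-seq counts came from 9 libraries of LN229, an established human glioblastoma cell line that one label spells LN299. The groups were untreated cells at 0 h, cells with 500 µM sodium formate for 8 h and cells with the same dose for 24 h, with 3 libraries each. The medium of all 3 groups held 10% fetal bovine serum, 2 mM glutamine and 17 mM glucose. Every untreated library was taken at 0 h, so formate and time in culture cannot be told apart. Nothing in the labels says that the libraries came from separate cultures, so the p-values measure the spread between these libraries, which may be technical.

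Purine nucleotides are built stepwise on a ribose phosphate. The pathway starts from phosphoribosyl pyrophosphate (PRPP) and glutamine, ends at inosine monophosphate (IMP), and then splits to AMP and GMP. Carbon atoms of the purine ring come from 10-formyl-tetrahydrofolate, which cells can make from formate. Formate can therefore enter the reactions of GART and ATIC. Proliferating tumour cells are known to use this route heavily, and in many cells the nucleotides made feed back on PPAT.

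PPAT and PAICS are neighbours on chromosome 4 that are read in opposite directions. RefSeq (GRCh38.p14) lists 1 start site for PPAT and 3 for PAICS. The PAICS start nearest to PPAT's lies 137 bases from it, and the other PAICS starts lie farther away. The 136 bases between that pair of starts are shown because the windows of both genes share them. The sequence spans chr4:56435616-56435751 on the plus strand, reading from PPAT to PAICS. It is 75.0% G or C and holds 15 CpG dinucleotides. The capitals mark 3 copies of the GC box GGGCGG:

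PPAT-PAICS interval: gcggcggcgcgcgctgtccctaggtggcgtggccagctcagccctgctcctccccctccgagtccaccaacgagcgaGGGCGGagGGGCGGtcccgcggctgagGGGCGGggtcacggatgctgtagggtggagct

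Promoter windows of 300 bases, from 250 before to 50 after each start site, were found in the RefSeq table for 8 of the 10 genes, in 13 windows. ADSL and IMPDH2 were not among them. The E-box CACGTG, the letters that MYC and its partner MAX are known to bind, was searched on both strands and stood in windows of 3 of the 8 genes: PPAT, PAICS and ATIC. Over all genes in the table, 8.77% held it, and over all windows 7.26%. These stretches are shown because they carry the E-boxes, in capitals, with up to 10 bases on either side:

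PPAT E-box: cggagatttcCACGTGcagcaaatac
PAICS E-box: gtatttgctgCACGTGgaaa
ATIC E-box, upstream of the start: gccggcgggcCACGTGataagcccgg
ATIC E-box, after the start: cctacctgcgCACGTGgtgccgccgc

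The PPAT and PAICS lines are the same genomic E-box on opposite strands. The first is chr4:56435782-56435807 on the minus strand, the second chr4:56435782-56435801 on the plus strand. Its first base lies at position -182 from the PPAT start and at position 41 from that same PAICS start. The ATIC pair lies on the plus strand at chr2:215312003-215312028 and chr2:215312078-215312103, with first bases at -46 and 30. The GC box was present in windows of 8 of 8 genes, against 48.3% of all genes. CCAAT was present for 1 of 8 genes, GART, against 39.7% of all genes. GCGCATGC, a core of the sites of the factor NRF1, was present for 0 of 8 genes, against 3.68%. These matches describe the letters of the windows only.

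Library totals lay between 22222298 and 25848242 counts. Values are given in CPM, the counts of a gene over the TMM-scaled library total in units of 1000000 counts, whose scaling factors ran from 0.92 to 1.06. In the smallest library 0.135 CPM stands for 3 counts. Untreated replicate 1 stood apart. Its counts differed from those of untreated replicates 2 and 3 with chi-square values per degree of freedom of 55.9 and 58.6, against 8.50 between replicates 2 and 3. Replicate 1 was also the most distant library at 8 h, with 21.7 and 23.1 against 10.7. At 24 h it was so with 13.6 and 24.1 against 8.80. Of the glial markers, NES lay between 887 and 1011 CPM and VIM between 3199 and 6284 CPM, whereas GFAP was near 0, at 0.129 to 0.425 CPM. Summed immune markers reached at most 0.265 CPM and epithelial markers at most 0.136 CPM. Summed CPM of 10 S-phase genes was 1808 to 2105 at 0 h, 1856 to 1998 at 8 h and 2182.3 to 2694 at 24 h. Summed CPM of 10 genes of G2 and M phase was 4372 to 4467, 4230 to 5178 and 2675 to 3942. Summed neuronal markers were at 76.4 to 128 CPM at 0 h, 95.6 to 121 CPM at 8 h and 154 to 167 CPM at 24 h. Of the 3 tested, 2 were higher at 24 h than at 0 h. SYT1 was lower, with means of 37.1 CPM at 0 h and 32.9 CPM at 24 h. The part of the shifts in these summed levels in the values below was not tested.

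None of the 10 purine synthesis genes passed the main test in any comparison of the 3 groups. With the replicate number as a block 1 of the 10 passed, PPAT at 24 h against 0 h, as given below. The main test was the quasi-likelihood test of edgeR, adjusted by Benjamini-Hochberg over all 15273 genes, and a gene was called at an adjusted p under 0.05. The fitted log2 fold changes of the 10 genes at 24 h against 0 h ran from -0.33 for IMPDH2 to 0.26 for PPAT, with a median of -0.09 against 0.01 for all tested genes. Fitted values lay above 0 for 4 genes (PPAT, GART, PFAS and GMPS) and below 0 for 6. The median standard error of the 10 genes was 0.13 on the log2 scale, against 0.15 for all tested genes.

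PPAT catalyses the committed first step, the transfer of an amino group from glutamine to PRPP. In CPM, it was the only one of the 10 genes whose 24 h libraries all lay above all untreated libraries. Over all 15273 tested genes, libraries of these groups did not overlap for 30.3%, among them 2421 genes with higher values at 24 h. The gene (ENSG00000128059) lies on the minus strand at chr4:56393362-56435615 (GRCh38, GENCODE 29). PPAT was at 25.7, 31.9 and 29.4 CPM in untreated replicates 1, 2 and 3. It was at 32.5, 32.6 and 31.8 CPM at 8 h and at 33.3, 35.5 and 35.9 CPM at 24 h. The untreated libraries were the most spread, and the highest of them overlapped the 8 h libraries but not the 24 h libraries. The means were 29.03 ± 3.11 (SD, n = 3), 32.3 ± 0.408 (SD, n = 3) and 34.9 ± 1.38 CPM (SD, n = 3). PPAT had a log2 fold change of 0.26 at 24 h against 0 h (SE 0.10, 95% interval 0.04 to 0.48, adjusted p = 0.135 by edgeR). PPAT was higher in 3 of 3 pairs of libraries with the same replicate number. In bulk RNA, more cells with a transcript and more transcript per cell cannot be told apart.

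With the replicate number as a block, PPAT rose at 24 h (log2 fold change 0.27, adjusted p = 0.0482 by edgeR). In that fit 24.1% of all tested genes were called and 1 of the 10 genes, so the share among the 10 was below the background. The call was lost in each of the 9 blocked fits that left out 1 library, with log2 fold changes between 0.18 and 0.33 and adjusted p between 0.0574 and 0.150. Without untreated replicate 1, which held the lowest PPAT value of the 9 libraries, the log2 fold change was 0.17 without the block, with an adjusted p of 0.311. DESeq2 gave PPAT an adjusted p of 0.125.

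**Figure D1:**
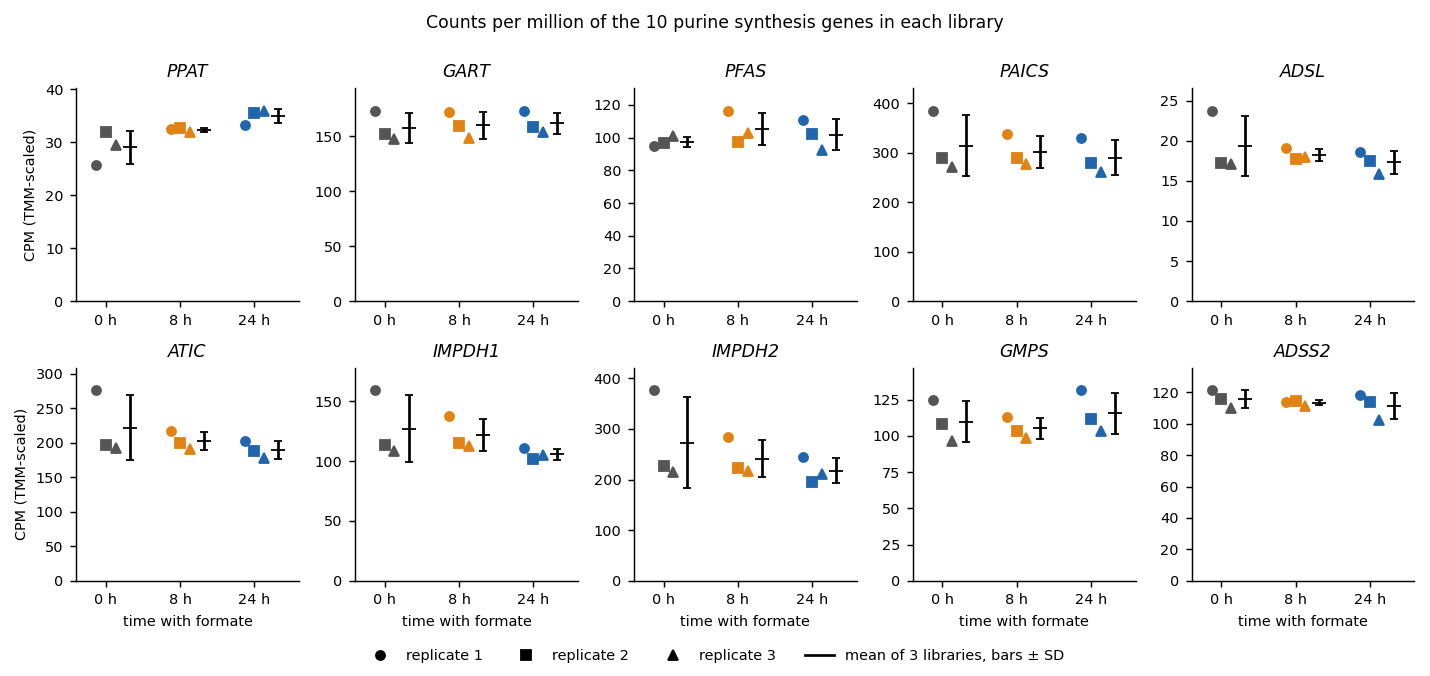
TMM-scaled CPM (vertical axes, each from 0) of the 10 purine synthesis genes in each of the 9 libraries, by time with formate; symbols give the replicate number and bars the mean ± SD of 3 libraries. Untreated replicate 1 is the highest library for 7 genes and the lowest for PPAT, and the 24 h libraries of PPAT, at 33.3 to 35.9 CPM, lie above its untreated libraries. Untreated and 24 h libraries did not overlap for 30.3% of all tested genes.

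GART carries several activities of the early pathway on one protein, among them the first formyl transfer from 10-formyl-tetrahydrofolate. The gene (ENSG00000159131) is at chr21:33503931-33543491 on the minus strand, and 3.55% of its exonic bases face exons of SON on the other strand. GART was at 173, 153 and 147 CPM in the untreated libraries, at 172, 159 and 148 CPM at 8 h and at 173, 158 and 154 CPM at 24 h. In each group replicate 1 was the highest, and the 3 groups overlapped in CPM. Its log2 fold change at 24 h against 0 h was 0.04 (95% interval -0.19 to 0.26, adjusted p = 0.836 by edgeR).

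PFAS, which adds a second amino group from glutamine, is encoded at chr17:8247618-8270491 on the plus strand (ENSG00000178921). It was at 94.7, 96.6 and 101 CPM in the untreated libraries, at 116, 97.1 and 103 CPM at 8 h and at 111, 102 and 92.1 CPM at 24 h. The highest library was 8 h replicate 1 and the lowest 24 h replicate 3, and the groups overlapped. The log2 fold change was 0.06 at 24 h (95% interval -0.16 to 0.29, adjusted p = 0.715 by edgeR) and 0.11 at 8 h.

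PAICS is a bifunctional enzyme that carboxylates the ring and then joins aspartate to it. It (ENSG00000128050) lies at chr4:56435741-56464579 on the plus strand, next to PPAT. It has 7 annotated pseudogene copies, of which the 2 in the count table reached at most 7 counts. PAICS was at 385, 289 and 270 CPM in the untreated libraries, at 338, 289 and 277 CPM at 8 h and at 330, 279 and 262 CPM at 24 h. Replicate 1 was the highest in every group, and untreated replicate 1 lay 1.38 times above the mean of the other untreated libraries. For PAICS the log2 fold change at 24 h against 0 h was -0.12 (95% interval -0.44 to 0.21, adjusted p = 0.638 by edgeR). It was 0.04 without untreated replicate 1, and -0.06 with the replicate block as well.

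ADSL splits off fumarate, both in the main chain and in the branch to AMP. Its gene (ENSG00000239900) is at chr22:40346500-40390463 on the plus strand. On the same strand, the annotated gene AL022238.4 overlaps 18.9% of its exonic bases and 68.8% of its coding bases. AL022238.4 itself had at most 4 counts in a library. How reads in such an overlap were assigned is not given in the sources used here, so the ADSL counts are uncertain. ADSL was at 23.7, 17.2 and 17.1 CPM in the untreated libraries, at 19.1, 17.7 and 17.9 CPM at 8 h and at 18.6, 17.5 and 15.8 CPM at 24 h. Untreated replicate 1 was above the other 8 libraries, which spanned 15.8 to 19.1 CPM. For ADSL the log2 fold change at 24 h was -0.16 (95% interval -0.47 to 0.14, adjusted p = 0.465 by edgeR).

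ATIC catalyses the last reactions to IMP, including the second formyl transfer from 10-formyl-tetrahydrofolate. It (ENSG00000138363) is encoded at chr2:215311817-215349773 on the plus strand. ATIC was at 276, 196 and 192 CPM in the untreated libraries, at 217, 200 and 191 CPM at 8 h and at 203, 188 and 178 CPM at 24 h. Untreated replicate 1 was the highest library, and the other untreated libraries lay within the range of the 24 h libraries. For ATIC the log2 fold change at 24 h was -0.22 (95% interval -0.53 to 0.08, adjusted p = 0.314 by edgeR). Without untreated replicate 1 this was -0.05, and -0.11 with the replicate block as well.

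IMPDH1 and IMPDH2 are isozymes of IMP dehydrogenase, the rate-limiting step of the branch to GMP. IMPDH1 (ENSG00000106348) lies at chr7:128392277-128410252 and IMPDH2 (ENSG00000178035) at chr3:49024325-49029408, both on the minus strand. IMPDH1 has 7 annotated pseudogene copies, and the 5 in the count table reached at most 19 counts. IMPDH2 had the widest spread of the 10 genes, at 376, 227 and 214 CPM in the untreated libraries. It was at 283, 222 and 217 CPM at 8 h and at 244, 196 and 211 CPM at 24 h. Untreated replicate 1 lay 1.70 times above the mean of the other untreated libraries. The log2 fold change at 24 h was -0.33 (95% interval -0.77 to 0.11, adjusted p = 0.310 by edgeR). Without untreated replicate 1 it was -0.04, and -0.15 with the replicate block as well.

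IMPDH1 was at 159, 113 and 109 CPM in the untreated libraries, at 138, 115 and 113 CPM at 8 h and at 111, 102 and 105 CPM at 24 h. In CPM the 24 h libraries all lay below the 8 h libraries, while the highest of them overlapped the untreated libraries. Libraries at 24 h and 8 h did not overlap for 34.3% of all tested genes. The log2 fold change was -0.26 at 24 h against 0 h (95% interval -0.58 to 0.05, adjusted p = 0.260 by edgeR) and -0.20 at 24 h against 8 h (adjusted p = 0.431 by edgeR). Without untreated replicate 1 the former was -0.09, and -0.15 with the replicate block as well. With the replicate block, the adjusted p at 24 h against 0 h was 0.0824 for IMPDH1 and 0.0716 for IMPDH2. Leaving out untreated replicate 3 from the blocked fit gave 0.0419 and 0.0201, and no other omission of 1 library gave either gene a call in that comparison. The blocked fit of all 9 libraries called 24.1% of all tested genes there.

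GMPS, the glutamine-using enzyme that completes GMP, is encoded at chr3:155870536-155944026 on the plus strand (ENSG00000163655). It was at 125, 108 and 96.8 CPM in the untreated libraries, at 113, 104 and 98.7 CPM at 8 h and at 131, 112 and 104 CPM at 24 h. Replicate 1 was the highest in each group, and each 24 h library lay above the same-numbered untreated one. The groups overlapped, and the log2 fold change was 0.07 (95% interval -0.19 to 0.34, adjusted p = 0.724 by edgeR).

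ADSS2, which joins aspartate to IMP on the way to AMP, is encoded at chr1:244408494-244452134 on the minus strand (ENSG00000035687, named ADSS in GENCODE 29). It was at 121, 116 and 110.2 CPM in the untreated libraries, at 114, 115 and 112 CPM at 8 h and at 118, 114 and 102 CPM at 24 h. The 9 libraries lay close together, and the log2 fold change at 24 h was -0.06 (95% interval -0.25 to 0.14, adjusted p = 0.714 by edgeR). Its muscle-type paralog ADSS1 was at 0.708 ± 0.258 CPM (SD, n = 3) untreated and 0.870 ± 0.323 CPM (SD, n = 3) at 24 h, from 9 to 30 counts a library. Its adjusted p was 0.644 by edgeR.

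**Figure D2:**
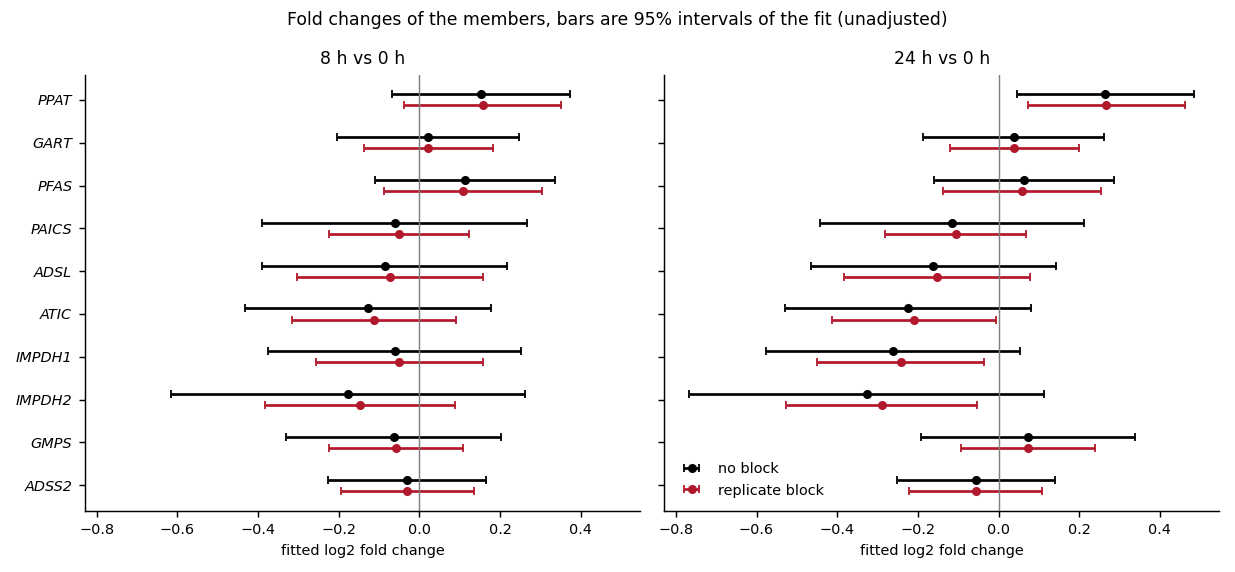
Fitted log2 fold changes (horizontal axes) of the 10 genes at 8 h and at 24 h against untreated cells, with 95% intervals that are not adjusted for the number of genes; black without and red with the replicate number as a block. At 24 h without the block the interval of PPAT, 0.04 to 0.48, is the only one that leaves out 0. In that comparison 26.4% of all tested genes had an unadjusted p under 0.05 by edgeR.

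The counts of the 10 genes stood against these backgrounds. At 24 h against 0 h, 4.25% of the tested genes were called by edgeR (649 genes, 378 higher and 271 lower) and 0 of the 10. At an unadjusted p under 0.05 it was 26.4% of all genes and 1 of the 10, PPAT. With the replicate block and an unadjusted p under 0.05 it was 38.3% of all genes and 4 of the 10, with PPAT at higher and ATIC, IMPDH1 and IMPDH2 at lower values. DESeq2 called 10.5% of all genes and 0 of the 10. In CPM, libraries of the 2 groups did not overlap for 30.3% of all genes and for 1 of the 10, again PPAT. The share among the 10 genes was near the background with the block at an unadjusted p and below it by the other rules, and no test was made of that difference.

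At 8 h against 0 h, 0% of the genes were called by edgeR, 0% with the replicate block and 0% by DESeq2, and 0 of the 10 in each case. At an unadjusted p under 0.05, 0.517% of all genes passed (79 genes) and 0 of the 10. Libraries did not overlap for 3.31% of all genes and for 0 of the 10. The log2 fold changes ran from -0.18 for IMPDH2 to 0.15 for PPAT, with a median of -0.06 against -0.02 for all tested genes. The adjusted p was 0.9999 by edgeR for all 10.

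At 24 h against 8 h, edgeR called 4.56% of all genes (696 genes) and 0 of the 10, and DESeq2 called 9.55% and 0 of the 10. At an unadjusted p under 0.05 it was 22.8% of all genes and 0 of the 10. Libraries did not overlap for 34.3% of all genes and for 2 of the 10, PPAT with higher and IMPDH1 with lower values at 24 h. Fitted values ran from -0.20 for IMPDH1 to 0.14 for GMPS, which had an adjusted p of 0.534 by edgeR.

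Much of the variation among the 10 genes lay between libraries of one group. Untreated replicate 1 was the highest of the 9 libraries for 7 of them (GART, PAICS, ADSL, ATIC, IMPDH1, IMPDH2 and ADSS2) and the lowest for PPAT. Its ratio to the mean of untreated replicates 2 and 3 was 1.70 for IMPDH2, 1.43 for IMPDH1, 1.42 for ATIC, 1.38 for ADSL, 1.22 for GMPS, 1.15 for GART, 1.07 for ADSS2, 0.959 for PFAS and 0.839 for PPAT. The library also stood apart in other genes. MYC was at 25.5 CPM there against 14.98 and 16.2 CPM, and VIM at 6284 CPM against 4260 and 4165 CPM. The part of these differences in the values of the purine genes was not tested. At the other end, 24 h replicate 3 was the lowest library for PFAS, PAICS, ADSL, ATIC and ADSS2 and the highest for PPAT.

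**Figure D3:**
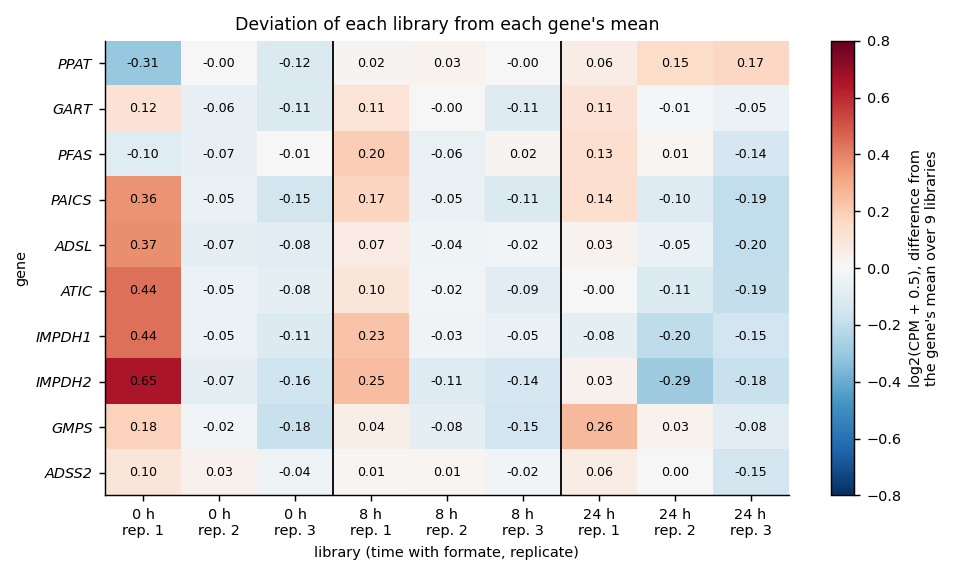
Log2 of CPM plus 0.5 of each of the 10 genes in each library, as the difference from that gene's mean over the 9 libraries; red is above and blue below the mean. Untreated replicate 1 holds the highest value, 0.65 for IMPDH2, and the lowest, -0.31 for PPAT.

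Without untreated replicate 1 and without the block, 5 of the 10 fitted values at 24 h lay above 0 and 5 below, with a median of 0.01. At 8 h, 9 of the 10 then lay above 0, with a median of 0.09. That fit kept replicate 1 of the formate groups. With the replicate block, 3 of the 10 lay above 0 and 7 below at 24 h, with a median of -0.06. At 8 h it was then 8 above and 2 below, with a median of 0.01. Without replicate 1 of every group, an alternative chosen after the data were seen, the median at 24 h was -0.04 and the range -0.12 (IMPDH2) to 0.22 (PPAT). The adjusted p of PPAT was then 0.0925 by edgeR, and 0.0558 with the block.

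Over the 9 libraries, which share their depth scaling and include untreated replicate 1, the Pearson correlation of log2 CPM was below 0 in 8 of the 9 pairs that included PPAT and above 0 in 36 of 36 pairs among the others. By Spearman's rank correlation 6 of the 9 pairs with PPAT were below 0, and GART, PFAS and GMPS were not among them. PPAT with ATIC had a Pearson correlation of -0.82 and a Spearman correlation of -0.48. ADSL with ATIC had 0.98 and 0.82. IMPDH1 and IMPDH2 had 0.97 and 0.88. These coefficients describe 9 libraries of 3 groups.

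The genes with the most similar pattern were named by the highest Pearson correlation over the 9 libraries, among genes of at least 5 CPM. Closest to the mean of the 10 genes were CDC45 (r = 0.983, rho = 0.967), RCC2 (r = 0.970, rho = 0.933), RFC2 (r = 0.967, rho = 0.900), WDR1 (r = 0.966, rho = 0.983) and MTHFD2 (r = 0.965, rho = 0.950). CDC45 is a part of the replicative helicase, RFC2 of the clamp loader, and MTHFD2 a mitochondrial folate enzyme. CDC45 was at 126, 89.2 and 83.3 CPM in the untreated libraries, so it too was highest in untreated replicate 1. Closest to PPAT were ACSL4 (r = 0.963), UMAD1 (r = 0.956) and KLHL8 (r = 0.954). ACSL4, an acyl-CoA synthetase, was at 78.4, 111 and 108 CPM untreated and at 115, 131 and 126 CPM at 24 h. Closest to GART were FGD1 (r = 0.973), SND1 (r = 0.947) and CDT1 (r = 0.944).

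The next values are levels per exon length, scaled to the same sum in every library (TPM), which allow genes to be set beside each other. They are not TMM-scaled, and on this scale untreated replicate 1 was not the highest library for GART and ADSS2. Whether groups overlapped also depended on the scale. In TPM the 24 h libraries of GART, at 93.8, 91.3 and 88.6, lay above its untreated libraries, at 82.1, 85.4 and 82.9. Those of IMPDH1, at 127.3, 124.2 and 127.9 TPM, lay below its untreated libraries, at 159.7, 134.3 and 129.5 TPM. The share of all genes without overlap was not computed in TPM. IMPDH2 had the highest level in untreated cells, at 397 ± 88.3 TPM (SD, n = 3). ATIC followed at 229.6 ± 24.7 and PAICS at 171 ± 15.9 TPM (SD, n = 3 each). IMPDH1 stood at 141 ± 16.2 and ADSS2 at 130.1 ± 7.99 TPM (SD, n = 3 each). The ranges of PAICS and IMPDH1 overlapped, as did those of IMPDH1 and ADSS2. GART was at 83.5 ± 1.74, PFAS at 62.2 ± 7.46 and GMPS at 50.7 ± 2.81 TPM (SD, n = 3 each), with no overlap between these neighbours. PPAT, at 22.2 ± 4.23 TPM (SD, n = 3), was ninth of the 10, and ADSL, at 11.1 ± 1.004 TPM (SD, n = 3), was the lowest. The ADSL counts are uncertain because of the overlapping gene, so its level and its place are uncertain too.

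The same order held at 8 h. At 24 h ADSS2 and IMPDH1 changed places, at 133 ± 7.59 and 126 ± 1.996 TPM (SD, n = 3 each), with overlapping ranges. PPAT was then at 28.1 ± 2.02 TPM and IMPDH2 at 342 ± 27.5 TPM (SD, n = 3 each). The highest level was 35.8 times the lowest in untreated cells, a ratio that rests on the uncertain ADSL level. With coding length in place of exon length PAICS was first, at 288 TPM untreated, before IMPDH2 at 198 TPM, and PPAT and ADSL remained the lowest. The summed level of the 10 genes was 1443, 1251 and 1201 TPM in the untreated libraries and 1300.5, 1218 and 1191 TPM at 24 h. The groups overlapped, with the highest sum in untreated replicate 1.

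**Figure D4:**
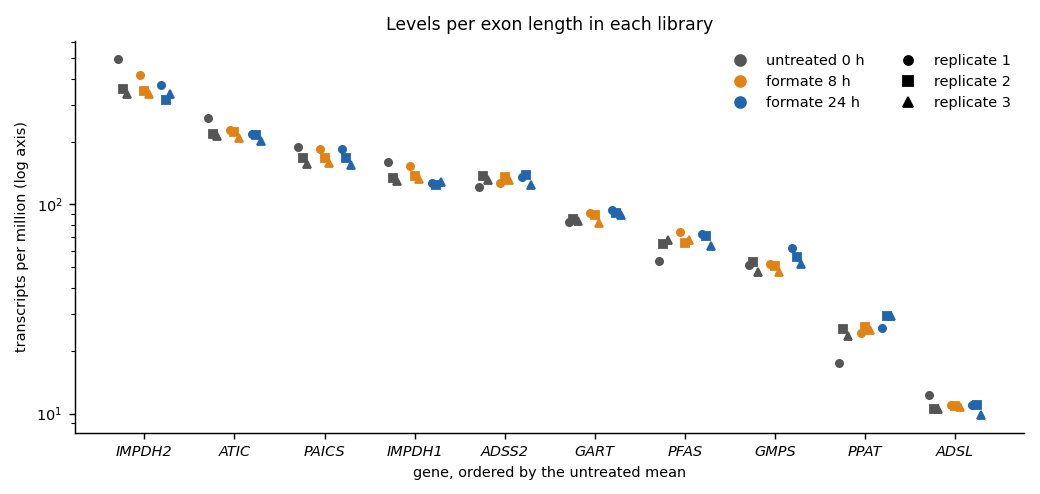
Levels of the 10 genes per exon length in TPM (logarithmic axis) in each library, ordered by the untreated mean. IMPDH2 is at the top, at 397 TPM on average in untreated cells, and PPAT and ADSL are at the bottom, at 22.2 and 11.1 TPM. The ADSL level is uncertain because an annotated gene overlaps it on the same strand.

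Ratios within a library do not depend on its scaling. The ratio of PAICS to PPAT, the pair with the shared promoter region, was 14.9, 9.06 and 9.19 in CPM in the untreated libraries, 10.4, 8.87 and 8.71 at 8 h and 9.89, 7.88 and 7.30 at 24 h. Untreated replicate 1 was the highest by far, and the other untreated libraries lay within the range at 24 h. At 24 h the log2 ratio was lower by a mean difference of -0.38 against 0 h (exact permutation test, two-sided, p = 0.3, adjusted p = 0.7 over 6 comparisons), and lower in 3 of 3 same-numbered pairs. With 3 libraries against 3 the smallest p this test allows is 0.1. Without untreated replicate 1 the difference was -0.14.

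The ratio of IMPDH2 to IMPDH1 was 2.36, 2.01 and 1.97 in the untreated libraries, 2.06, 1.93 and 1.93 at 8 h and 2.21, 1.93 and 2.01 at 24 h. It was thus near 2 in CPM in all 3 groups, with replicate 1 highest in each. The log2 difference was -0.10 at 8 h (exact permutation p = 0.5) and -0.04 at 24 h against 0 h (exact permutation p = 0.6), with an adjusted p of 0.7 for both.

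**Figure D5:**
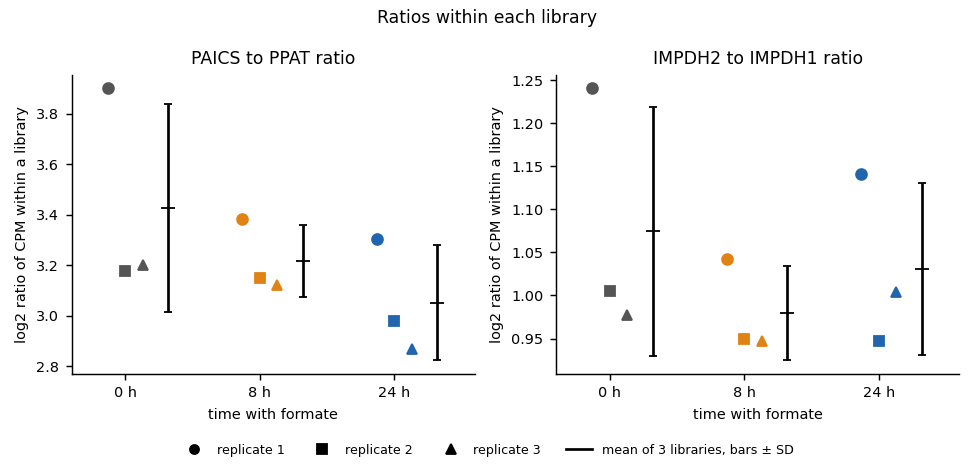
Log2 ratios of PAICS to PPAT and of IMPDH2 to IMPDH1 in CPM (vertical axes, which do not start at 0) in each library, by time with formate; bars are the mean ± SD of 3 libraries. Untreated replicate 1 has the highest log2 ratio of PAICS to PPAT, 3.90, and the 24 h libraries lie between 2.87 and 3.31.

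The other genes around the pathway were taken from 8 lists, in which 60 of 64 genes were tested. At 24 h against 0 h, 4 of the 60 rose and 3 fell by edgeR, beside 4.25% of all tested genes called. At 8 h 0 of 60 passed, beside 0% of all tested genes. With the replicate block 11 rose and 14 fell at 24 h, beside 24.1% of all tested genes called. The same 4.25% stands beside the edgeR counts of each list below, and no test was made of the difference.

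Of the 4 tested genes of PRPP supply, 1 fell. PRPSAP1, which binds and restrains PRPP synthetase, was at 160, 118 and 110.5 CPM untreated and at 91.8, 90.0 and 91.6 CPM at 24 h, without overlap. Its log2 fold change was -0.51 (SE 0.13, adjusted p = 0.0498 by edgeR). The synthetase gene PRPS2 was at 39.4 ± 1.43 CPM (SD, n = 3) untreated and 41.5 ± 1.55 CPM (SD, n = 3) at 24 h, with an adjusted p of 0.588 by edgeR. Of 8 salvage genes, which recycle bases and nucleosides, 1 rose. ADA, which deaminates adenosine, was at 6.55 ± 0.653 CPM (SD, n = 3) untreated and 9.97 ± 1.10 CPM (SD, n = 3) at 24 h (log2 fold change 0.61, adjusted p = 0.0396 by edgeR).

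Of 5 tested genes of purine breakdown, 1 fell. NT5E, the ectoenzyme that releases adenosine from AMP, was at 571, 434 and 448 CPM untreated and at 274, 221 and 207 CPM at 24 h. All 24 h libraries lay far below the untreated ones, and the log2 fold change was -1.05 (SE 0.16, adjusted p = 0.0170 by edgeR). Of 14 genes of interconversion and nucleotide kinases, 3 of ribonucleotide reductase and 7 of pyrimidine and thymidylate synthesis, 0 passed. The smallest p in the first of these lists belonged to the adenylate kinase AK3 (log2 fold change 0.34, adjusted p = 0.0526 by edgeR). In the second it belonged to the reductase subunit RRM2B (log2 fold change 0.39, adjusted p = 0.126 by edgeR).

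Of 9 tested folate genes, which supply or use 10-formyl-tetrahydrofolate, 1 rose. SHMT1, the cytosolic serine hydroxymethyltransferase, was at 59.8, 61.5 and 55.2 CPM untreated, at 48.9, 64.8 and 55.4 CPM at 8 h and at 81.8, 81.6 and 84.1 CPM at 24 h. Its 24 h libraries lay above the other 6, and the log2 fold change was 0.49 (SE 0.11, adjusted p = 0.0345 by edgeR). The median of this list was -0.06, against 0.01 for all tested genes.

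Among 10 known regulators of nucleotide synthesis genes, 2 rose and 1 fell at 24 h. MYC, an activator of most of these synthesis genes in other systems, was at 25.5, 14.98 and 16.2 CPM untreated, at 24.2, 18.1 and 18.4 CPM at 8 h and at 10.95, 10.4 and 8.70 CPM at 24 h. The 24 h libraries lay below all others, with a log2 fold change of -0.91 against 0 h (SE 0.20, adjusted p = 0.0347 by edgeR). Its paralog MYCN was at 2.55 ± 1.32 CPM (SD, n = 3) untreated and 9.55 ± 2.86 CPM (SD, n = 3) at 24 h (log2 fold change 1.89, adjusted p = 0.0408 by edgeR). MXI1, an antagonist of MYC at E-boxes, was at 15.2 ± 3.70 CPM (SD, n = 3) untreated and 26.1 ± 3.08 CPM (SD, n = 3) at 24 h (log2 fold change 0.77, adjusted p = 0.0437 by edgeR). PPAT, PAICS and ATIC, whose windows hold an E-box, had log2 fold changes of 0.26, -0.12 and -0.22 in the same comparison, and none was called. The part of MYC, MYCN and MXI1 in these values was not tested.

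Each of these 7 calls was lost in some of the 9 fits that left out 1 library. NT5E kept its call in 7, MYC in 6, SHMT1 in 4, and PRPSAP1, ADA, MYCN and MXI1 in 3 each, and all 7 kept the sign of their fold change throughout. All 7 also passed with the replicate block and by DESeq2. The summed S-phase genes were higher and the summed genes of G2 and M phase lower at 24 h, as given above. In these lists 2 of 10 and 5 of 10 genes were called, beside 4.25% of all tested genes. The part of the cell cycle genes in the 24 h values was not tested.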

How the data were processed

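RNA-seq of 9 LN229 libraries was analysed, 3 each of untreated cells at 0 h and of cells with 500 µM sodium formate for 8 h or 24 h. RNA with an integrity number above 9 went into stranded mRNA libraries, per the labels' protocols. The authors deposited 1 table of raw read counts per gene for all libraries. Reads were aligned with STAR 2.7.4a to GRCh38 after bcl2fastq 2.20.0.422, per the submitters' processing notes. The counting program, its strand setting and the annotation release are not given in the sources used here. Gene names came from the reference tables, which matched 19733 of 23727 genes to a symbol, and exon lengths and positions from GENCODE 29.

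Counts were tested with edgeR 4.0.16 in R 4.3.3: filterByExpr left 15273 genes, libraries were scaled by TMM, and all 9 libraries entered one quasi-likelihood fit with a mean per group. P-values were adjusted by Benjamini-Hochberg over all tested genes in each comparison, with a threshold of 0.05. The fits were tested on simulated data. Standard errors were taken from the fold change and its F statistic. Ratios were compared with exact permutation tests (scipy 1.17.1). Alternatives were the replicate number as a block, RLE scaling, other filters, DESeq2 1.42.0, fits of 2 groups and leaving out libraries.

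The labels number the replicates 1 to 3 in each group but do not say what the number marks. Deviations from the group means correlated between same-numbered libraries at 0.476, 0.432 and 0.414 for 0 h with 8 h. For 0 h with 24 h the values were 0.367, 0.164 and 0.251, and for 8 h with 24 h 0.423, 0.0367 and 0.404. All were positive, but differently numbered libraries were not compared in this way. Whether the numbers pair the libraries was therefore not settled. The main test did not use the number, and the fit with the block did. Replicates differed beyond sampling noise, so none was counted as a duplicate.

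The 10 genes, the companion lists and the marker lists were chosen with earlier results of these data known. The text names all 10 purine genes. From each companion list it names up to 3 genes called at 24 h against 0 h by smallest p, or the 1 with the smallest p where none was called, and the paralogs ADSS1 and PRPS2. A gene that this rule names and the oligodendrocyte marker list are not reported here. The genes of similar pattern are the 5 closest to the mean of the 10 and the 3 closest to PPAT and to GART. Summed CPM of the glial markers was 6279 to 8626 at 0 h and 5351 to 6200.2 at 24 h. VIM alone had means of 4903 CPM at 0 h and 3554 CPM at 24 h. Of the 8 tested glial markers 4 had fitted values above 0 at 24 h against 0 h, with 2 called. The other 4 lay below 0, with 0 called, and 4.25% of all tested genes were called. Summed CPM of the endothelial markers was 0.308 to 0.613 at 0 h and 1.04 to 1.70 at 24 h.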

Additional observations from a re-analysis of the deposited data

Results flagged for a closer look

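For 6 of the companion genes described above the change at 24 h differed from that at 8 h. Both are measured against the same untreated libraries, so the difference between them is the comparison of 24 h with 8 h. The quasi-likelihood test of edgeR, adjusted by Benjamini-Hochberg, called it for each of the 6. In this comparison 4.56% of all tested genes and 9 of the 60 companion genes were called. The 6 had been named for their calls at 24 h against 0 h, which used the same 24 h libraries, so these calls are not independent. For each of the 6, the 3 libraries at 24 h all lay on one side of the 3 at 8 h, as they did for 34.3% of all tested genes. None of the 10 purine synthesis genes was among them.

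MYCN was at 1.97 ± 1.11 CPM (SD, n = 3) at 8 h and 9.55 ± 2.86 CPM (SD, n = 3) at 24 h (log2 fold change 2.27, adjusted p = 0.0266 by edgeR). MYC was lower at 24 h (log2 fold change -1.02, adjusted p = 0.0250 by edgeR). MXI1 was higher, by 0.86 on the log2 scale (adjusted p = 0.0329 by edgeR).

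NT5E was lower at 24 h than at 8 h, with a log2 fold change of -1.08 (adjusted p = 0.0171 by edgeR). ADA was higher, by 0.64 on the log2 scale (adjusted p = 0.0342 by edgeR). SHMT1 was higher, by 0.55 (adjusted p = 0.0248 by edgeR). The summed S-phase genes were 1856 to 1998 CPM at 8 h and 2182.3 to 2694 CPM at 24 h, and their part in these values was not tested.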

How the results depend on the processing

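With 3 libraries a group, small changes in expression could not be called: the widest 95% interval of the 10 purine genes at 24 h against 0 h, that of IMPDH2, ran from -0.77 to 0.11 on the log2 scale. The 10 genes had from 381 counts (ADSL) to 8161 counts (PAICS) in a library, and the paralog ADSS1 had 9 to 30. Under another scaling (RLE), no filter on low counts, a filter of at least 1 CPM in 3 libraries and a fit of the 2 groups compared, no purine gene was called and none changed sign. DESeq2 gave the same.

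With the replicate number as a block, 3687 genes were called at 24 h against 0 h, in place of 649, with 1 of the 10 purine genes (PPAT) and 25 of the 60 companion genes, in place of 7. The block changed no other call among the 10 genes. At 24 h against 8 h the block gave 3130 genes, in place of 696, with 0 of the 10 and 18 companion genes, in place of 9. The replicate numbers were not shown to pair the libraries in either comparison. A fit of the 2 groups alone gave 124 genes and 1 companion gene at 24 h against 0 h, and 1787 genes and 16 companion genes against 8 h. DESeq2 gave 1606 genes and 16 companion genes at 24 h against 0 h, and 1458 genes against 8 h. Without replicate 1 of every group, an alternative chosen after the data were seen, 2616 genes and 21 companion genes were called at 24 h against 0 h, and 3991 and 28 with the block. Against 8 h it was 3072 and 25, and 4477 and 29 with the block. The cause of these differences in counts was not tested. At 8 h against 0 h edgeR called 0 genes under each alternative.

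Leaving out 1 library at a time, with or without the block, the number of genes called ran from 0 to 3816 at 24 h against 0 h and from 0 to 5432 against 8 h. Without 24 h replicate 2 or 3 it was 0 in both comparisons when no block was used. Companion genes called ran from 0 to 26 and from 0 to 33. The count among the 10 purine genes ran from 0 to 2 at 24 h against 0 h, with IMPDH1 and IMPDH2 called in the blocked fit without untreated replicate 3. Against 8 h it ran from 0 to 1, with IMPDH1 called in the blocked fit without untreated replicate 1. The blocked fits of all 9 libraries called 24.1% of all tested genes at 24 h against 0 h and 20.5% against 8 h. The shares in the single fits that called IMPDH1 and IMPDH2 are not given here, so these counts are not set against a background.

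The log2 fold changes that changed sign when 1 library was left out all belonged to genes that were not called. At 8 h against 0 h the ranges were -0.026 to 0.091 for GART, -0.14 to 0.11 for PAICS, -0.16 to 0.082 for ADSL, -0.21 to 0.058 for ATIC, -0.15 to 0.13 for IMPDH1, -0.31 to 0.12 for IMPDH2, -0.13 to 0.033 for GMPS and -0.053 to 0.0087 for ADSS2. At 24 h against 0 h they were -0.014 to 0.092 for GART, -0.046 to 0.13 for PFAS, -0.22 to 0.036 for PAICS, -0.031 to 0.15 for GMPS and -0.068 to 0.51 for ADSS1. At 24 h against 8 h they were -0.045 to 0.056 for GART, -0.12 to 0.013 for PFAS, -0.16 to 0.019 for PAICS, -0.074 to 0.021 for ADSS2, -0.32 to 0.33 for ADSS1 and -0.0043 to 0.042 for PRPS2. At 24 h against 0 h, PPAT was above 0 in every fit that left out 1 library, and ADSL, ATIC, IMPDH1, IMPDH2 and ADSS2 were below 0. ADSL and ADSS2 came as near to 0 as -0.0096 and -0.0035. Without replicate 1 of every group, values changed sign at 8 h for PAICS (0.017, and 0.018 with the block), ADSL (0.052 in both fits), ATIC (0.0087, and 0.0085 with the block) and IMPDH1 (0.037 in both fits), and at 24 h against 0 h for PFAS (-0.021 in both fits).

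The log2 difference of the ratio of IMPDH2 to IMPDH1 ran from -0.099 to 0.039 at 24 h against 0 h and from -0.0041 to 0.093 against 8 h. That of PAICS to PPAT at 8 h ran from -0.33 to 0.029. The highest of the 10 levels per length was 23.8 times the lowest with coding length, in place of 35.8 with exon length. The lowest was ADSL in both cases, whose counts are uncertain.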
